A study of Mus musculus with 4 samples.

Results

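The genes described here are 36 mouse genes of the G1/S transition and of DNA replication, fixed by name. The list, its division by role and the other gene lists were chosen with earlier results of these data known. A gene was read from a probe set annotated with its symbol alone, and from the brightest on average where it had more than 1. Of the 36, 34 had such a probe set. Ccne2, the second cyclin E gene, and Rfc4, a subunit of the clamp loader, are on probe sets that also carry the symbol of another gene (Ints8 and Eif4a2), so neither has a value here. The 34 are among 22180 named genes on the array. All 34 passed the filter on low values, a log2 value of at least 5.98 on at least 1 array, as did 14272 genes in all. The lowest value of any of the 34 was 7.06, for E2f2.

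CT26, the cell line measured, derives from a colon carcinoma of the mouse and was cultured for this experiment. Its RNA was read on 4 whole-transcript arrays (Affymetrix Mouse Gene 2.0 ST). The DMSO array held RNA from cells given solvent for 24 h, and the Senexin B array RNA from cells given 5 µM Senexin B, an inhibitor of the Mediator kinases CDK8 and CDK19, for 24 h. The pLKO.1 array held RNA from the CT26 line with that lentiviral hairpin vector, and the shCDK8 array RNA from the CT26 line named for a hairpin against CDK8. The labels do not say whether either line is 1 clone or a pool, or whether it received solvent. There was 1 array per group, so no difference could be tested, no value has an error, and every comparison below is a difference of log2 values between single arrays. In such bulk RNA, fewer cells in S phase and less RNA per cell cannot be told apart.

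A cell that commits to division activates E2F transcription factors, which are held back by the retinoblastoma protein until cyclin-dependent kinases phosphorylate it. E2F then switches on the genes for loading the MCM helicase at origins, for firing those origins, for making deoxynucleotides and for packing the new DNA. Mediator joins transcription factors to RNA polymerase II, and its kinase module, with CDK8 or CDK19, can raise or lower the output of a gene.

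Several of the 36 genes share short promoter elements. A window of 300 bases around the transcription start (250 before it and 50 after) was in the RefSeq table for GRCm38.p6 for 31 of the 36 genes, as 37 windows. The E2F site was searched on both strands in the forms TTTCCCGC, TTTGGCGC, TTTCGCGC and TTTGCCGC, and forms that overlap were each counted. At least 1 of the 4 forms was in 14 of the 37 windows (37.8%), against 744 of all 32851 windows (2.26%). The CCAAT box, searched as CCAAT, was in 23 (62.2%) against 37.4% of all windows, and the CHR element of mitotic genes, searched as TTTGAA, in 5 (13.5%) against 17.9%. The windows set beside them are all those of the table, whether or not the gene was expressed here. A match is a description of the letters and shows no binding. The stretches below, 5′ to 3′ on the gene's strand with each E2F form in capitals, are of members that took different positions on the arrays. E2f7 and Cdc6 were lower on both the Senexin B and shCDK8 arrays than on either control. Mcm5 was the lowest of the members in the shCDK8 comparison, and Orc1 and Mcm6 differed in opposite directions in the 2 comparisons. They lie at chr10:110745211-110745278 (+) for E2f7, chr11:98907983-98908050 (+) for Cdc6, chr4:108579397-108579453 (+) for Orc1, chr8:75109326-75109397 (+) for Mcm5 and chr1:128359715-128359845 (-) for Mcm6, all in GRCm38.p6 and all before the start site.
E2f7: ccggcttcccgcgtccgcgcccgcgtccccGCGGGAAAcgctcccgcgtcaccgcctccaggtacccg
Cdc6: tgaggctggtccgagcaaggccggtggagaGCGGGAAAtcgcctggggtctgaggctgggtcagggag
Orc1: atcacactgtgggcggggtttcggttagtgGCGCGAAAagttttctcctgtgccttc
Mcm5: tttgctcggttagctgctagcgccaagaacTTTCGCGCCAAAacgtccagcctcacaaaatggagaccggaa
Mcm6: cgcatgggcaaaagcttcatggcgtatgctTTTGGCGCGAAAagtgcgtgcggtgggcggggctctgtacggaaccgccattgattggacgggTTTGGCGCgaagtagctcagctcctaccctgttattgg

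In E2f7, Cdc6 and Orc1 the capitals are 1 site read on the opposite strand. In Mcm5 they are 2 overlapping sites on opposite strands, and Mcm6 has such an overlapping couple and 1 site nearer the start, 3 in all.

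Facts of the arrays as a whole are few. The array medians lay between 5.99 and 6.04, and Pearson's r between arrays over 41345 probe sets between 0.982 and 0.990. Cdk8 itself read 10.69 on the DMSO, 10.58 on the Senexin B, 10.79 on the pLKO.1 and 9.07 on the shCDK8 array, which bears out the label of the hairpin line. Of 8 epithelial markers, Epcam, Cldn7, Krt19 and Vil1 stayed under the limit of 5.98 on every array, and Cdh1 (6.50 to 6.74), Krt8 (7.12 to 7.25), Krt18 (6.38 to 6.53) and Cdx2 (6.40 to 6.82) passed it. All 4 mesenchymal markers passed it, from Zeb1 (6.99 to 7.23) through Cdh2 and Fn1 to Vim (13.81 to 13.94). The 3 endothelial markers passed on at least 1 array, with Pecam1 at 5.88 to 6.14, Kdr at 5.92 to 6.16 and Cdh5 at 5.27 to 6.15. Of the immune markers with a probe set, Ptprc, Cd3e and Itgam stayed under it too, and Cd68 read 8.82 to 9.15.

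With Senexin B, most of the replication genes were slightly lower than with DMSO, and 26 of the 34 differences were below 0 (76.5%) beside 55.1% of all expressed genes. The median difference was -0.15, beside -0.028 over all expressed genes. A log2 difference of 0.322 in size served as the fold limit. Lower by at least this limit were 5 genes (14.7%, beside 8.99% of expressed genes): Tyms, E2f7, Rrm2, E2f8 and E2f1. The 1 gene higher by at least the limit was E2f2 (2.94%, beside 9.21%). None was 1.5-fold lower, where 1.65% of expressed genes were, or 1.5-fold higher, where 2.35% were. The size of the lean depends on the scaling of the arrays. With a lowess trend of the difference on expression level removed, the median was -0.066 with 24 of 34 below 0 (70.6%), beside -0.0011 and 50.2% of expressed genes. A repeated quantile normalization gave -0.094 with 26 of 34 below 0, beside -0.011 and 51.9%. In either case E2f7 and Tyms were the members lower by the fold limit, and E2f2 the member higher by it.

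Between the shCDK8 and pLKO.1 lines, 25 of the 34 differences were below 0 (73.5%) beside 49.1% of expressed genes, and the median was -0.067 beside 0.0038. The sizes were smaller than with Senexin B. None of the 34 was lower by the fold limit, where 7.68% of expressed genes were, and none higher by it, where 8.81% were. At 1.5-fold the shares of expressed genes were 1.85% lower and 1.67% higher, again with none of the 34. Mcm5 came closest to the limit, at -0.320.

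The control arrays give the size of difference seen between 2 cultures with no aimed change in CDK8. For pLKO.1 minus DMSO, 15 of the 34 were below 0 (44.1%, beside 55.6% of expressed genes) and the median was 0.0050 beside -0.023. The differences ran from -0.20 for Gins1 to 0.18 for E2f1, and none of the 34 was lower by the fold limit (5.05% of expressed genes) or higher by it (4.03%). Nor was any 1.5-fold lower (0.434%) or 1.5-fold higher (0.603%). A difference of 0.2 in a single member is thus as large as one seen between the controls. These controls each share an array with 1 of the comparisons, so the 3 differences of a gene are not independent.

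**Figure D1:**
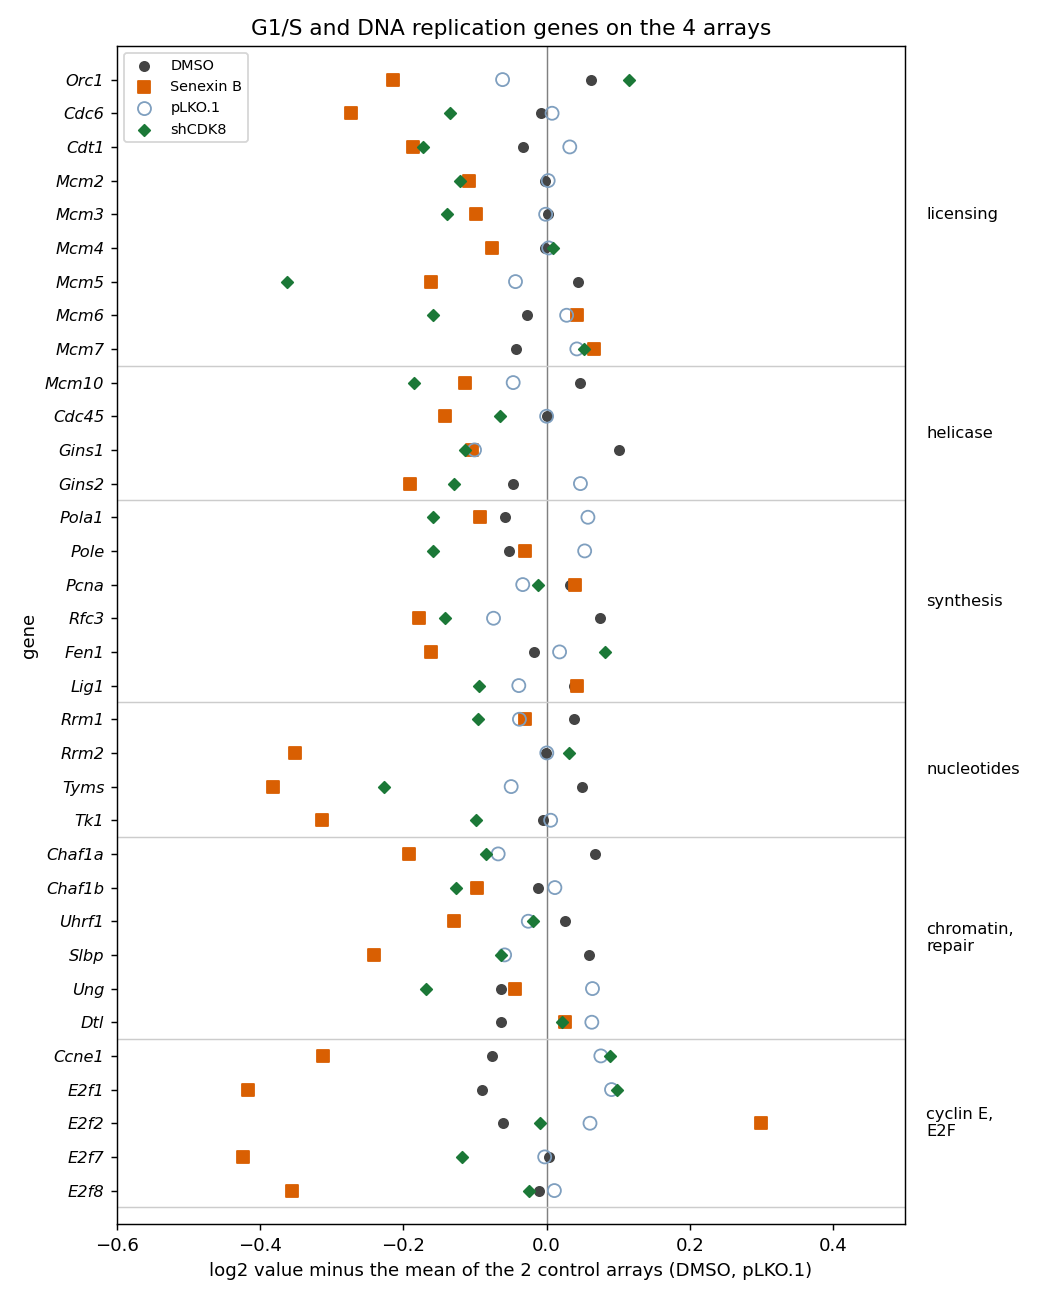
Each row is 1 of the 34 genes, grouped by role, and each point 1 array; the x axis is the log2 value minus the mean of the DMSO and pLKO.1 arrays. Senexin B (squares) lies below both controls in 25 rows and shCDK8 (diamonds) in 23, and E2f2 is the row with Senexin B farthest to the right.

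Origin licensing begins with the origin recognition complex, of which Orc1 is the largest subunit. Orc1 read 7.85 on the DMSO, 7.57 on the Senexin B, 7.73 on the pLKO.1 and 7.90 on the shCDK8 array. It was 1.21-fold lower with Senexin B and 1.13-fold higher in shCDK8, so the perturbed arrays were its lowest and its highest. Cdc6, the ATPase that joins the complex to load the helicase, read 10.24, 9.97, 10.25 and 10.11 in the same order of arrays. Both perturbed arrays lay under both controls, which were 0.015 apart, with 1.20-fold lower for Senexin B and 1.10-fold lower for shCDK8. Cdt1, which brings the MCM ring to the origin, read 10.58, 10.43, 10.65 and 10.44. It too was lower on both perturbed arrays, with differences of -0.15 and -0.21.

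The 6 subunits of the MCM2-7 ring, the engine of the replicative helicase, did not share a direction. Mcm5 read 11.66 on the DMSO, 11.46 on the Senexin B, 11.58 on the pLKO.1 and 11.26 on the shCDK8 array. Its difference was -0.21 with Senexin B and -0.32 in shCDK8, and against the DMSO array the shCDK8 value was at -0.41. Mcm2 (11.17, 11.06, 11.17 and 11.05) and Mcm3 (11.44, 11.34, 11.44 and 11.30) had nearly equal controls, 0.0044 and -0.0027 apart, and were lower on both perturbed arrays by 1.07- to 1.10-fold. Mcm6 read 11.41, 11.48, 11.46 and 11.28, and was lower in shCDK8 alone (-0.19), with Senexin B just above both controls. Mcm4 (11.17, 11.10, 11.17 and 11.18) was lower with Senexin B alone, at -0.073. Mcm7 (11.45, 11.56, 11.53 and 11.54) was the single member of the 34 for which both perturbed arrays lay above both controls. These subunits work as a ring of 1 copy each, and their differences spanned -0.21 to 0.11 for Senexin B and -0.32 to 0.0099 for shCDK8.

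Helicase activation adds Cdc45 and the GINS complex to the ring, with the help of Mcm10. All 4 genes measured here were below 0 in both comparisons, as were 28.4% of expressed genes. Gins2, a GINS subunit, read 9.55 on the DMSO, 9.41 on the Senexin B, 9.65 on the pLKO.1 and 9.47 on the shCDK8 array, with differences of -0.14 and -0.18. Mcm10 read 9.89, 9.73, 9.80 and 9.66, with -0.16 and -0.14. Cdc45 read 9.08, 8.94, 9.08 and 9.01, with -0.14 and -0.065, and its controls differed by -0.0001. Gins1 read 8.61, 8.41, 8.41 and 8.40. For Gins1 the DMSO array stood alone above the other 3, so its difference of -0.20 with Senexin B is matched by -0.20 between the controls. Against pLKO.1, Gins1 was at -0.0030 with Senexin B and at -0.013 in shCDK8. The medians of the 4 genes were -0.15 with Senexin B, -0.10 in shCDK8 and -0.047 between the controls.

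DNA synthesis genes split by comparison. Pcna, the sliding clamp, read 12.27 on the DMSO, 12.28 on the Senexin B, 12.20 on the pLKO.1 and 12.22 on the shCDK8 array, the narrowest range of the 34 genes at 0.074. Lig1, the ligase that joins Okazaki fragments, read 9.81, 9.81, 9.73 and 9.68, and differed by 0.0038 with Senexin B. These are the genes of the list that Senexin B left nearest to DMSO. RefSeq lists 2 pseudogenes named after Pcna and 1 after Tyms, and cross-hybridization of their transcripts was not tested.

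The polymerase genes were lower in the hairpin line and near DMSO with the inhibitor. Pola1, the catalytic subunit of the priming polymerase alpha, read 9.63 on the DMSO, 9.59 on the Senexin B, 9.74 on the pLKO.1 and 9.53 on the shCDK8 array. Pole, the catalytic subunit of the leading-strand polymerase epsilon, read 9.76, 9.78, 9.87 and 9.65. Their shCDK8 differences were -0.22 and -0.21, and those of Senexin B -0.035 and 0.023. Against the other control the shCDK8 differences were -0.10 and -0.11, and those of Senexin B -0.15 and -0.083. The Senexin B difference of Pola1 turned to 0.055 with the lowess trend removed and to 0.031 after repeated quantile normalization. A second Pole probe set, with values of 4.90 to 5.42 and so under the expression limit, was 0.52 higher in shCDK8. Rfc3, a clamp loader subunit, had the opposite emphasis. It read 9.14, 8.89, 8.99 and 8.93, which put it 1.19-fold lower with Senexin B and 1.05-fold lower in shCDK8, with the controls -0.15 apart. Fen1, which trims the flaps of Okazaki fragments, read 8.71, 8.56, 8.74 and 8.81. It was at -0.14 with Senexin B and at 0.064 in shCDK8, and its second probe set, at 6.92 to 7.28, gave -0.28 and -0.10. With probe sets averaged per gene, the shCDK8 difference turned to 0.15 for Pole and to -0.020 for Fen1.

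Deoxynucleotide supply and the cyclin E and E2F regulators were the roles with the lowest medians in the Senexin B comparison. For nucleotide supply it was -0.33 over 4 genes, beside -0.081 in shCDK8 and -0.038 between the controls. Tyms, thymidylate synthase, read 8.93 on the DMSO, 8.50 on the Senexin B, 8.83 on the pLKO.1 and 8.65 on the shCDK8 array. It was 1.35-fold lower with Senexin B, the lowest of the 34, and 1.13-fold lower in shCDK8, and both perturbed arrays lay under both controls. Rrm2, the S-phase subunit of ribonucleotide reductase, read 10.82, 10.47, 10.82 and 10.85. Only the Senexin B array was apart, at 1.28-fold lower, while the other 3 lay within 0.031 of DMSO. A second Rrm2 probe set, at 5.05 to 5.44 and under the expression limit, gave 0.10 for Senexin B minus DMSO, and averaging the probe sets put the shCDK8 difference at -0.090. Tk1, the S-phase thymidine kinase, read 10.83, 10.52, 10.84 and 10.74, or 1.24-fold lower with Senexin B and 1.07-fold lower in shCDK8. Rrm1, the large subunit of the reductase, did not share the size of Rrm2. It read 12.12, 12.05, 12.04 and 11.99, with a Senexin B difference of -0.068 and a control difference of -0.076.

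Genes that handle chromatin, histone messages and uracil in new DNA were mixed. Slbp, whose product binds the stem-loop of histone mRNAs, read 10.88 on the DMSO, 10.58 on the Senexin B, 10.77 on the pLKO.1 and 10.76 on the shCDK8 array. It was 1.23-fold lower with Senexin B and at -0.0048 in shCDK8. Chaf1a, the large subunit of the histone chaperone CAF-1, read 9.53, 9.27, 9.40 and 9.38, and its partner Chaf1b read 10.04, 9.95, 10.06 and 9.92. The partners differed in opposite emphasis, with -0.26 and -0.017 for Chaf1a and -0.085 and -0.14 for Chaf1b, Senexin B first. Uhrf1, which guides DNA methylation to new strands, read 11.03, 10.88, 10.98 and 10.99, lower on the Senexin B array alone.

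Ung and Dtl did not follow the lean of the list with Senexin B. Ung, the uracil DNA glycosylase, read 8.28 on the DMSO, 8.30 on the Senexin B, 8.41 on the pLKO.1 and 8.17 on the shCDK8 array, for a shCDK8 difference of -0.23. Against the DMSO array that value was -0.11, since the controls differed by 0.13. Dtl, which targets Cdt1 for destruction during S phase, read 10.42, 10.51, 10.54 and 10.50. DMSO was its lowest array and pLKO.1 its highest, so neither perturbed array lay outside the controls.

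The regulators at the top of the programme held the highest Senexin B difference of the 34 genes, that of E2f2, and the lowest after Tyms, that of E2f7. E2f7, an atypical E2F that represses E2F targets, read 9.38 on the DMSO, 8.95 on the Senexin B, 9.38 on the pLKO.1 and 9.26 on the shCDK8 array. It was 1.34-fold lower with Senexin B and 1.08-fold lower in shCDK8, and its controls differed by -0.0053. E2f8, its partner repressor, read 10.46, 10.12, 10.49 and 10.45, so Senexin B alone stood apart, at 1.27-fold lower. E2f1, the activator that drives entry into S phase, read 9.40, 9.07, 9.58 and 9.58. Its difference was -0.33 against DMSO and -0.51 against pLKO.1, and its range over the 4 arrays, 0.51, was the widest of the 34. Ccne1, cyclin E1, which activates CDK2, read 9.06, 8.83, 9.22 and 9.23, with -0.24 against DMSO and -0.39 against pLKO.1. For E2f1 and Ccne1 the pLKO.1 and shCDK8 arrays differed by 0.0072 and 0.013.

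E2f2, another activator E2F, went the other way. It read 7.06 on the DMSO, 7.42 on the Senexin B, 7.18 on the pLKO.1 and 7.11 on the shCDK8 array. Senexin B was the highest array, 1.28-fold over DMSO and at 0.24 against pLKO.1, and the other 3 arrays lay within 0.12. The 5 regulators with values had a median of -0.33 with Senexin B, -0.035 in shCDK8 and 0.12 between the controls.

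The order of the arrays summarizes the list without a fold. Senexin B lay below both controls in 25 of the 34 genes (73.5%), as in 40.4% of expressed genes, and above both in 5 (14.7%, beside 35.1%). The 5 were Mcm6, Mcm7, Pcna, Lig1 and E2f2. The shCDK8 array lay below both controls in 23 (67.6%, beside 38.4%) and above both in 7 (20.6%, beside 36.9%): Orc1, Mcm4, Mcm7, Fen1, Rrm2, Ccne1 and E2f1. Both perturbed arrays lay below both controls in 18 (52.9%, beside 18.9%) and above both in 1 (2.94%, beside 16.3%). The 18 were Cdc6, Cdt1, Mcm2, Mcm3, Mcm5, Mcm10, Cdc45, Gins1, Gins2, Pola1, Rfc3, Tyms, Tk1, Chaf1a, Chaf1b, Slbp, E2f7 and E2f8. No minimum size was set for a position. Among the 18, Gins1 was at -0.0030 with Senexin B against pLKO.1. In shCDK8 Slbp was at -0.0048 against pLKO.1 and E2f8 at -0.013 against DMSO. All sides of these counts rest on the same pair of control arrays. With the lowess trend removed 13 of the 18 kept that position and no other member took it, and after repeated quantile normalization 14 did, beside 17.3% of expressed genes in either case.

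**Figure D2:**
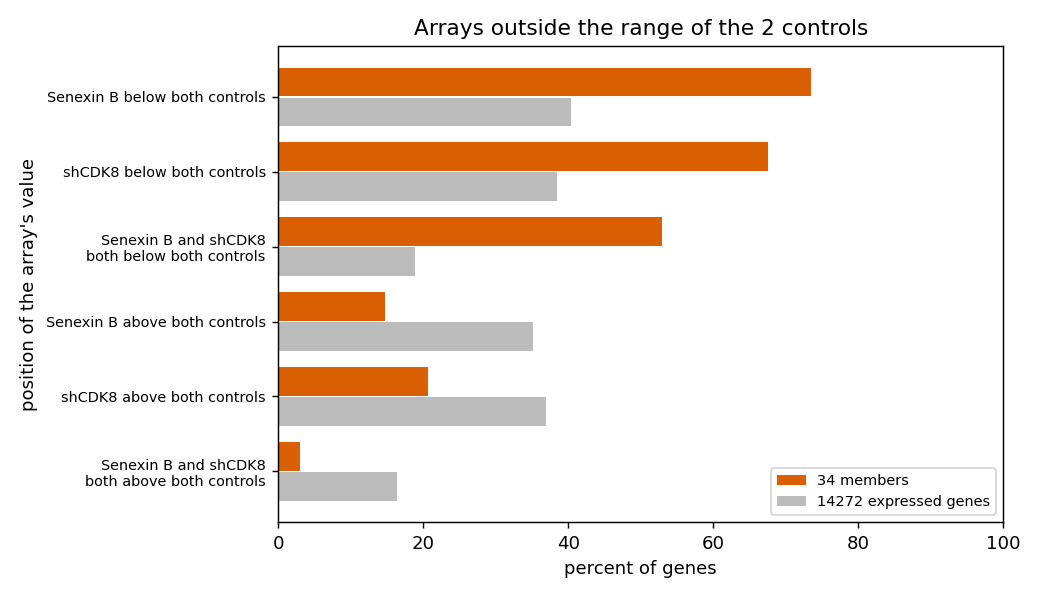
Bars give the percent of genes for which the Senexin B array, the shCDK8 array or both lay below or above both control arrays, for the 34 members (orange) and for all 14272 expressed genes (grey). The members exceed the expressed genes in all 3 positions below the controls, with 52.9% beside 18.9% for both arrays at once, and fall short of them in all 3 positions above.

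The inhibitor and hairpin comparisons share no array, so their values can be set side by side. Of the 34 genes 19 were lower in both (55.9%, beside 28.4% of expressed genes) and 2, Pcna and Mcm7, higher in both (5.88%, beside 24.1%). Another 7 were lower with Senexin B and higher in shCDK8 (20.6%, beside 26.7%), and 6 the reverse (17.6%, beside 20.7%). Sizes did not go together gene by gene. Across the 34 genes Pearson's r was -0.13 and Spearman's rho -0.18, and across expressed genes 0.0078 and 0.054, given as descriptions, since genes of 1 array share its normalization. Rrm2, E2f1, E2f8 and Slbp, all at least 1.23-fold lower with Senexin B, lay within 0.04 of pLKO.1 in shCDK8. Against DMSO the shCDK8 differences were 0.031 for Rrm2, 0.19 for E2f1, -0.013 for E2f8 and -0.12 for Slbp. Pola1, Pole and Ung, at -0.21 to -0.23 in shCDK8, lay within 0.04 of DMSO with Senexin B. Their controls differed by 0.11 to 0.13. Against the other control they were at -0.10 to -0.11 in shCDK8 and at -0.083 to -0.15 with Senexin B. Cdt1, also at -0.21 in shCDK8, was at -0.15 with Senexin B.

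**Figure D3:**
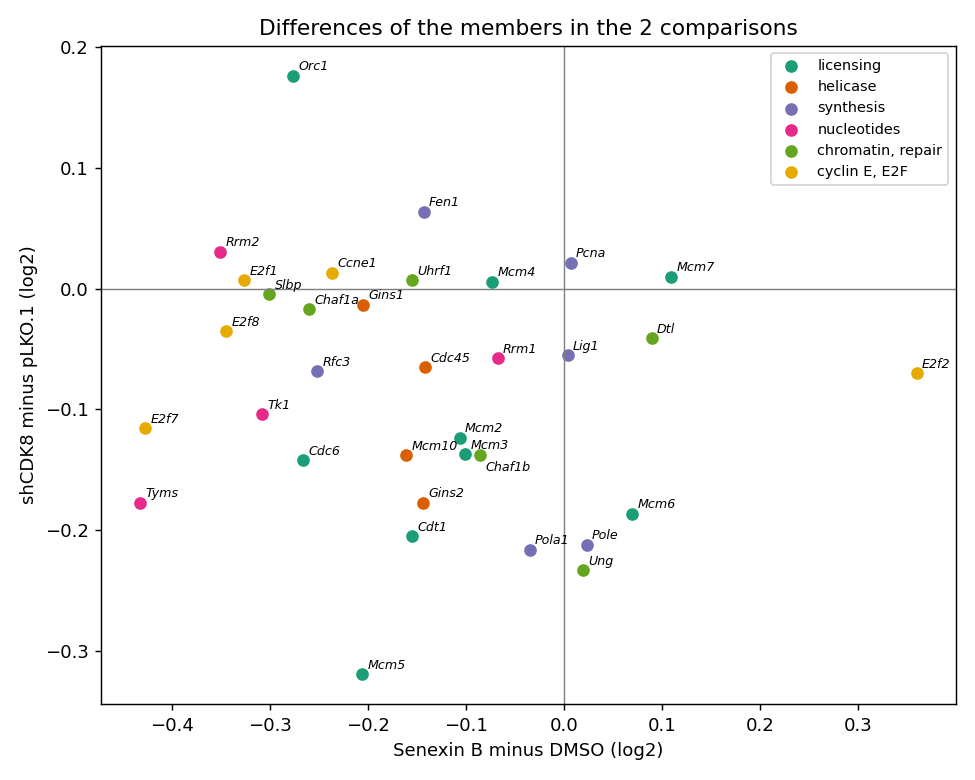
Each point is 1 of the 34 genes, coloured by role, with the Senexin B minus DMSO difference on the x axis and the shCDK8 minus pLKO.1 difference on the y axis, both in log2 units. Below 0 on both axes lie 19 genes; E2f7 and Tyms lie farthest left, Mcm5 lowest, and E2f2 far to the right.

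The differences are given by promoter match as a description. The 14 genes with a match had a median of -0.13 with Senexin B, 9 of them below 0. The 16 measured genes with a window and no match had -0.20, 14 of them below 0. Of all expressed genes 55.1% were below 0 in that comparison. In shCDK8 the medians were -0.093 and -0.046, with 11 below 0 in either group, beside 49.1% of expressed genes. E2f7, with the single site shown above, was among the lowest with Senexin B, but Tyms, which had no match, was lower still. Mcm6, with 3 matches, was 0.070 higher with Senexin B.

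Other genes of the same machinery came from 4 lists of 113 genes, of which 109 were measured and all of those expressed. With Senexin B 81 of the 109 were below 0 (74.3%, beside 55.1% of expressed genes), with a median of -0.12. Lower by the fold limit were 12 (11.0%, beside 8.99%), and none was higher by it (beside 9.21%). In shCDK8 64 were below 0 (58.7%, beside 49.1%), with a median of -0.031. There 4 were lower by the limit (3.67%, beside 7.68%) and 3 higher by it (2.75%, beside 8.81%). Between the controls 68 were below 0 (62.4%, beside 55.6%) with a median of -0.033.

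Among other origin and fork genes, 30 of 40 were below 0 with Senexin B and 25 in shCDK8. Orc2, a core subunit of the origin recognition complex, read 9.82 on the DMSO, 9.40 on the Senexin B, 9.82 on the pLKO.1 and 9.51 on the shCDK8 array. It was lower on both perturbed arrays, at -0.41 and -0.31, from controls that read alike. Next to it stood Clspn (-0.34), a checkpoint adaptor at the fork, and the polymerase epsilon subunits Pole4 and Pole2 (-0.33 each) with Senexin B. With the pLKO.1 array as control instead, Clspn was at -0.30, Pole4 at -0.19 and Pole2 at -0.14. In shCDK8 the primase gene Prim1 was at -0.43, the nuclease gene Dna2 at -0.31 and Pole3, a further polymerase epsilon subunit, at 0.43. With the DMSO array as control instead, Pole3 was at 0.16 and Dna2 at -0.48.

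The cyclin, kinase, inhibitor and pocket protein list had 22 of 35 genes below 0 with Senexin B (62.9%, beside 55.1% of expressed genes). In shCDK8 18 were below 0 (51.4%, beside 49.1%). Between the controls 24 were (68.6%, beside 55.6%), and with Senexin B against pLKO.1 17 were (48.6%, beside 50.2%). E2f3, the remaining activator E2F, read 8.24 on the DMSO, 7.59 on the Senexin B, 8.09 on the pLKO.1 and 8.07 on the shCDK8 array. At 1.57-fold lower with Senexin B it was farther apart than any of the 34 members, and in shCDK8 it was at -0.025. Mybl2, an E2F-regulated partner in the switch to G2/M genes, was at -0.48, Cdk7 at -0.35 and the CDK4/6 inhibitor gene Cdkn2d at -0.33. The controls also differed for Mybl2, by -0.24, and for Cdkn2d, by -0.39. Cdk2 was at 0.14, Ccnd1 (cyclin D1) at -0.19, Myc at 0.049 and the CDK inhibitor gene Cdkn1a at -0.28.

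In the hairpin line the largest differences of that list were in Skp2 and Rb1. Skp2, the ubiquitin ligase subunit that marks the CDK inhibitor p27 for destruction, read 10.96 on the DMSO, 10.88 on the Senexin B, 10.83 on the pLKO.1 and 10.20 on the shCDK8 array. The shCDK8 array alone was low, at 1.55-fold lower. Rb1, the retinoblastoma gene, read 8.63, 8.70, 8.64 and 9.13, so shCDK8 alone was high, at 1.40-fold. Rb1, like Mybl2 above, has 2 probe sets, and only the brighter on average was read. Cdkn1b, which encodes p27, was at 0.39 against pLKO.1 but at 0.052 against DMSO, since its controls differed by -0.33. Cdc25a, a phosphatase that activates CDK2, was at -0.28 (-0.14 against DMSO), Cdkn1a at 0.21, Myc at -0.22, Cdk2 at -0.15 and Ccnd1 at 0.10.

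Of 16 measured nucleotide and chromatin genes outside the members, 14 were below 0 with Senexin B (87.5%, beside 55.1% of expressed genes). In shCDK8 10 were below 0 (62.5%, beside 49.1%). Samhd1, a dNTP hydrolase, was at -0.39 and the maintenance methyltransferase gene Dnmt1 at -0.25 with Senexin B. Asf1b, a histone chaperone, was at -0.23 with Senexin B and -0.18 in shCDK8, but at -0.23 between the controls. Of the fork repair partners Mms22l and Tonsl, Mms22l was at -0.25 with Senexin B and 0.29 in shCDK8 (0.19 against DMSO), and Tonsl at -0.33 in shCDK8. The chromatin remodeller gene Hells was at -0.24 there. Of 18 measured repair and checkpoint genes, 15 were below 0 with Senexin B (83.3%, beside 55.1%) and 11 in shCDK8 (61.1%, beside 49.1%). With Senexin B Hus1, a checkpoint clamp gene, was at -0.40 (and -0.26 between the controls), the mismatch repair gene Msh6 at -0.39, Rad51ap1 at -0.29 and Fanci at 0.28. In shCDK8 Bard1, the partner of Brca1, was at -0.49, the checkpoint kinase gene Chek1 at -0.27, Hus1 at -0.21 and Usp1 at -0.20. Against DMSO, Chek1 was at -0.48, Hus1 at -0.47 and Usp1 at -0.32.

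G2/M and mitosis genes, which are switched on later in the cycle, were the nearest list to set beside the 34. With Senexin B 31 of 38 were below 0 (81.6%, beside 55.1% of expressed genes). Their median was -0.13, close to the -0.15 of the members. Against pLKO.1 instead, 16 of 38 were below 0 (42.1%, beside 50.2%) with a median of 0.032. The members had 28 of 34 (82.4%) and -0.11 there. Between the controls 36 mitosis genes were below 0 (94.7%, beside 55.6%). Their median was -0.11, where the members had 0.0050. In shCDK8 only 9 of 38 were below 0 (23.7%, beside 49.1% of expressed genes) and the median was 0.10. The members had 25 of 34 (73.5%) and -0.067 there. Against the DMSO array the shCDK8 medians were -0.032 for mitosis genes and -0.11 for the members. In shCDK8 against pLKO.1, Dlgap5, a spindle protein gene, was at 0.65, Ccnb2 (cyclin B2) and the kinesin gene Cenpe at 0.36, and the proliferation marker gene Mki67 at -0.35. Against DMSO, Dlgap5 was at 0.36, Ccnb2 at 0.26, Cenpe at 0.27 and Mki67 at -0.31, and the controls differed by -0.29 for Dlgap5. With Senexin B Mki67 was at -0.36, Cdk1 and Ect2 at -0.32 and Kif23 at -0.30. With pLKO.1 as control instead, Mki67 was at -0.40, Cdk1 at -0.17, Ect2 at -0.060 and Kif23 at -0.12. The difference between the lists could not be tested with 1 array per group.

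**Figure D4:**
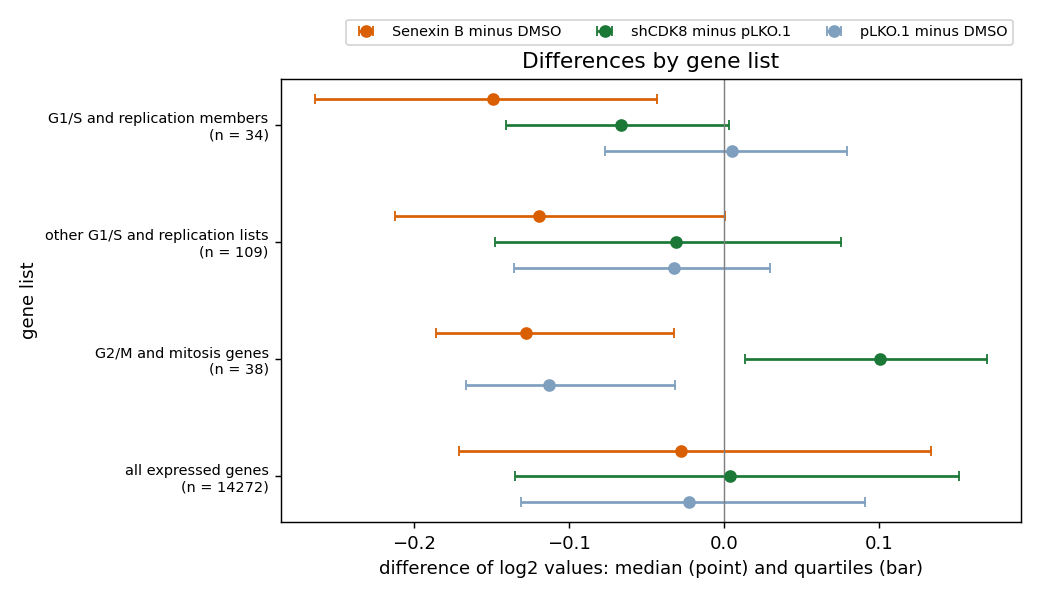
Points are medians and bars run from the lower to the upper quartile over the expressed genes of each list, on the x axis as differences of log2 values, for Senexin B minus DMSO, shCDK8 minus pLKO.1 and pLKO.1 minus DMSO. The members lie below 0 in the first and second and at 0.0050 in the third, and the G2/M genes lie at -0.11 in the third and at 0.10 in the second.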

How the data were processed

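Total RNA of 4 CT26 cultures was hybridized to 1 array each. The authors deposited a log2 value for each probe set on each array. The submitters' processing notes name RMA and Affymetrix Expression Console, per the labels; whether the 4 arrays were normalized jointly is not given in the sources used here. The number of arrays limits the precision. Of 41345 probe sets 23521 carry 1 symbol in the platform annotation, 1814 several and 16010 none.

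From the deposited log2 values, differences were taken for genes whose highest value reached the 40th percentile (5.98). List members, roles and gene lists were chosen with earlier results of these data known. Named genes are all 36 members, up to 4 per other list and comparison by absolute difference, and some set by name, of which Cdk19 was at 0.16 with Senexin B and 0.19 in shCDK8. No test was run. Alternatives were rescaling (repeated quantile, median, lowess with span 0.3), other probe set rules, filters, a floor, means, folds and the other control. A value was counted as moved at a shift of 0.05, a count beyond a factor of 1.5. Scripts, tested on simulated data, used Python 3.11.15, numpy 2.4.6, pandas 2.3.3, scipy 1.17.1, statsmodels 0.14.6 and matplotlib 3.10.9. Promoters are RefSeq's for GRCm38.p6.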

Additional observations from a re-analysis of the deposited data

How the results depend on the processing

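Over the 15 results on the whole list and their alternatives, 107 of 119 values stayed within the size counted as a move, and no median past that size changed sign. The Senexin B median of -0.15 moved to -0.094 with repeated quantile normalization and to -0.066 with the lowess trend removed, and ran from -0.15 to -0.066 over all alternatives. The members lower by the fold limit with Senexin B, 5 in all, were 2 under either of these rescalings, 3 (E2f7, Rrm2 and Tyms) with the median difference of expressed genes subtracted, and 0 at 1.5-fold or 2-fold. The 1 member higher by it likewise became 0 at those folds. Subtracting the median made Mcm5 the 1 member lower by it in shCDK8. Genes with both perturbed arrays above both controls were 2, not 1, with the lowess trend removed or with probe sets averaged per gene. The shCDK8 median ran from -0.11 (DMSO as control) to -0.060, and the control median from 0.0019 to 0.037. Of 408 values for single members 56 moved, 51 of them in the Senexin B comparison, mostly under the lowess (30) and quantile (19) rescalings, and no difference past the fold limit changed sign. Of the smaller ones 19 values did, 4 with Senexin B, 5 in shCDK8 and 10 between the controls. Those of size 0.03 or more before were Pole (-0.21 to 0.15), Fen1 (0.064 to -0.020) and Rrm2 (0.031 to -0.090) in shCDK8 and Pole (0.11 to -0.016) between the controls, all with averaged probe sets, and Pola1 (-0.035 to 0.055 and 0.031) and Chaf1b (-0.085 to 0.0035) with Senexin B under rescaling. The cause of the expression trend was not tested. With 1 array per group no replicate could be left out.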
